A study of Mus musculus with 12 samples.

Results

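Transcripts of 10 genes that carry sugars into the cell or start fructose use were followed in interscapular brown adipose tissue (BAT) of WT and *Txnip*-/- mice. They are 9 members of the Slc2a (GLUT) family, *Slc2a1*, *Slc2a3*, *Slc2a4*, *Slc2a5*, *Slc2a6*, *Slc2a8*, *Slc2a9*, *Slc2a10* and *Slc2a12*, and the fructokinase *Khk*, taken by name from 25124 genes in the table of expression values. The mice were males of 10 weeks, WT or *Txnip*-/-, acclimated for 1 week to room temperature at 23 °C (RT) or to thermoneutrality at 30 °C (TN), with 3 libraries for each combination of genotype and temperature. The *Txnip*-/- line was kept on the C57B/6J background, the WT mice were littermates, and the methods name no driver that would limit the deletion to a single cell type. The sources call the libraries triplicates and do not tie each one to a single animal, so the p-values measure the spread between these libraries, which may in part be technical. Txnip is the thioredoxin-interacting protein, an arrestin-like protein known to hold back glucose uptake, and the study compared BAT with and without it at both temperatures.

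Expression is given as TPM, a transcript abundance scaled for transcript length and library size. Levels can be set side by side between genes, within the limit that each rests on the length of 1 chosen transcript. Multiplied by transcript length, at least 99.56% of the low TPM values of each library were whole multiples of the value of 1 read, and the reads on exons recovered from them were, in units of 1e6 reads, between 19.19 and 29.23 per library, with a median of 23.72. *Txnip* itself was between 564 and 694 TPM in RT WT and between 24.8 and 35.4 in RT *Txnip*-/-, and between 1072 and 1238 in TN WT and 10.5 and 14.4 in TN *Txnip*-/-, so every library matched its label. Markers of brown adipocytes were present in all libraries, with a sum over 8 genes of 11340 to 11960 TPM in WT and 8535 to 10760 in *Txnip*-/- at RT, and of 6692 to 7587 in WT and 3689 to 4305 in *Txnip*-/- at TN. Libraries of a group correlated across genes with an r between 0.985 and 0.993.

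GLUT proteins let hexoses pass the cell membrane down their gradient. In brown and white adipocytes GLUT4 is stored in vesicles and moved to the surface by insulin, in brown adipocytes also by adrenergic signals, whereas GLUT1 is the widely expressed basal carrier. GLUT5 carries fructose, and ketohexokinase, the product of *Khk*, then phosphorylates it. Glucose use in BAT is known to rise when animals are kept in the cold and to fall towards thermoneutrality.

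The 250 bases before the RefSeq start site (build GRCm38.p6, the RefSeq name for mm10) are shown for the 3 transporters whose *Txnip*-/- and WT libraries did not overlap at either temperature and for *Khk*, whose level followed temperature. Capitals mark the E-box CACGTG, the site of many helix-loop-helix factors, among them the glucose-responsive factor ChREBP.

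Slc2a5, chr4:150119094-150119343, plus strand: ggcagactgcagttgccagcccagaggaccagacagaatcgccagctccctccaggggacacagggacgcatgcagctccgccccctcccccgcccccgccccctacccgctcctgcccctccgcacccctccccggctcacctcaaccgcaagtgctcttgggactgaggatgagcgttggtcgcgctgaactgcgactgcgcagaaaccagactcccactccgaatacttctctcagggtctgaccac

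Slc2a1, chr4:119108495-119108744, plus strand: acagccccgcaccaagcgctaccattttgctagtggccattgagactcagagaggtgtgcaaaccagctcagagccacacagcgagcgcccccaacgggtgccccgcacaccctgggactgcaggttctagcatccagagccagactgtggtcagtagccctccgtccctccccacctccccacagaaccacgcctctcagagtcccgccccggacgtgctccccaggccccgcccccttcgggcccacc

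Slc2a12, chr10:22644761-22645010, plus strand: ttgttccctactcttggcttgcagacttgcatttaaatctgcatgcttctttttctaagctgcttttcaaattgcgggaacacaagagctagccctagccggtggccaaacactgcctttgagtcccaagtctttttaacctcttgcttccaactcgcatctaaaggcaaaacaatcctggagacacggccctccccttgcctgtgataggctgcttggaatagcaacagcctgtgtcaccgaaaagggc

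Khk, chr5:30921309-30921558, plus strand: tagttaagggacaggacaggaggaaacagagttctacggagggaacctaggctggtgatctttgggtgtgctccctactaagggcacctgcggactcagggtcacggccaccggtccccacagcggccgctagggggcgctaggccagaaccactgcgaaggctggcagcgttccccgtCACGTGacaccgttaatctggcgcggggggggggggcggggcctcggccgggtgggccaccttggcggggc

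A promoter window of 300 bases, from 250 before to 50 after the start, was given for 8 of the 10 genes. Of these windows, 1 held CACGTG on either strand, that of *Khk*, where its first base lies 71 bases before the start, and 7.15% of 32851 mouse promoter windows of the same length held it. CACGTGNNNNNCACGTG, an exact form of the paired E-boxes of a carbohydrate response element, was in none of the 32851 windows. That pattern could therefore not tell these genes from others, and looser forms were not searched. AGGTCANAGGTCA, a repeat recognised by nuclear receptors, was in none of the 8 and in 0.0396% of all. The single motif AGGTCA, which is also part of that repeat, was in the window of *Slc2a9* and in 16.3% of all windows. The windows of *Slc2a5* and *Slc2a1* each had a GC content of 65.3%, *Khk* 65.7% and *Slc2a12* 47.0%, against a median of 52.7% over all windows.

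**Figure D1:**
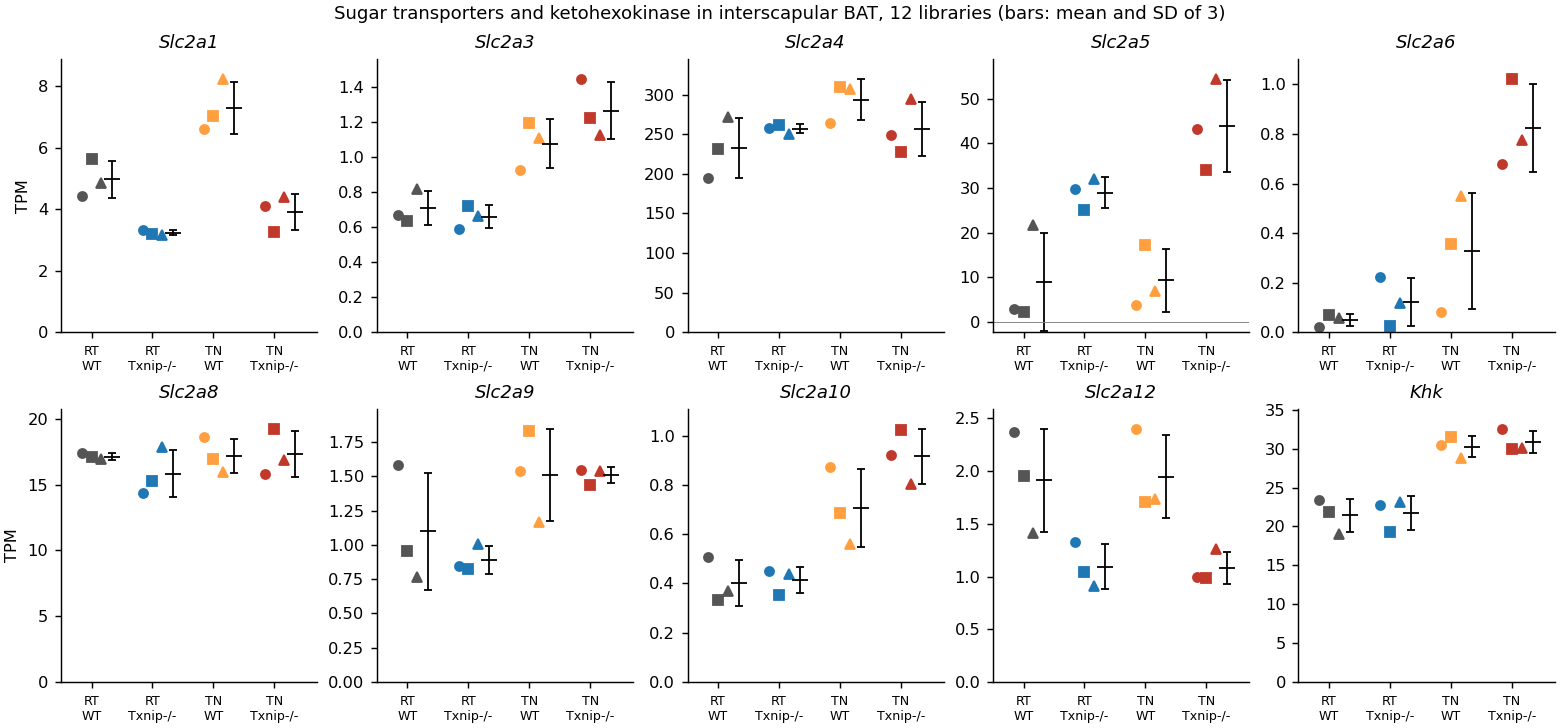
TPM (linear axes, each gene on its own scale) of the 10 genes in the 12 libraries, with replicate 1 as a circle, 2 as a square and 3 as a triangle, and the mean with its SD (n = 3) as a bar beside each group. *Slc2a5* was 25.2 TPM or more in every *Txnip*-/- library and 21.6 or less in every WT library, while *Slc2a1* and *Slc2a12* lay lower in *Txnip*-/- at both temperatures.

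*Slc2a4*, which encodes the insulin-responsive GLUT4, made up most of the transporter transcripts of BAT. At RT it was 233 ± 38.4 TPM in WT and 257 ± 5.96 in *Txnip*-/-, and at TN 294 ± 25.5 in WT and 257 ± 34.3 in *Txnip*-/- (SD, n = 3). Its share of the summed TPM of the 9 transporters was between 78.4% and 89.4% over the 12 libraries. In TN *Txnip*-/- that share was 78.4% to 78.5%, below the 86.9% to 89.4% of TN WT, and in RT *Txnip*-/- it was 81.7% to 84.9%, below the 85.3% to 88.9% of RT WT. The level of *Slc2a4* itself overlapped between genotypes at both temperatures.

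**Figure D2:**
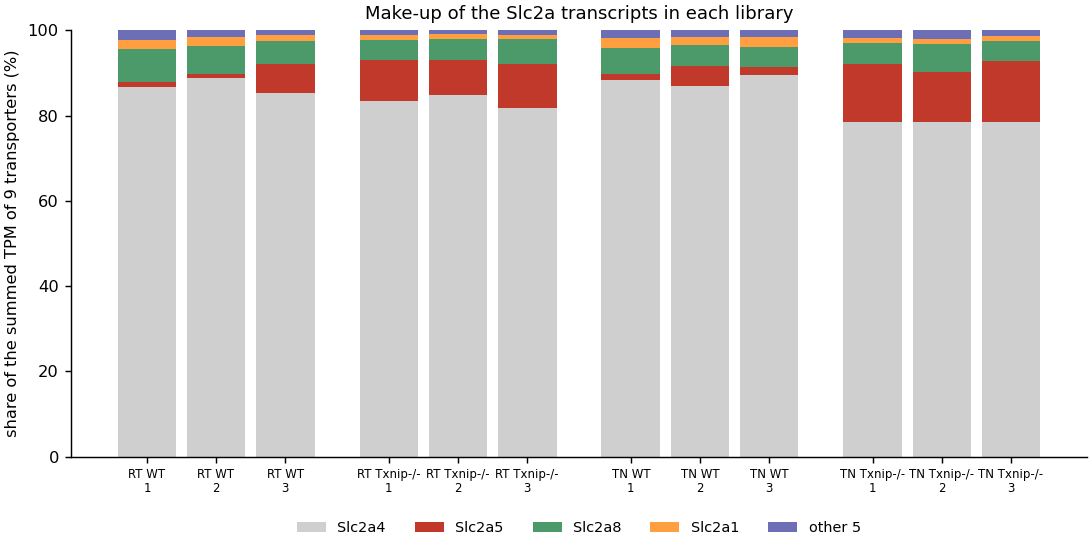
Share of each transporter in the summed TPM of the 9 Slc2a genes (%), 1 bar per library, in the order of the groups. *Slc2a5* held 8.14% to 14.5% in the *Txnip*-/- libraries and 0.839% to 6.8% in the WT libraries.

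In the order of levels *Khk* followed *Slc2a4* in both WT groups, ahead of *Slc2a8*, *Slc2a5* and *Slc2a1*, and the libraries of *Slc2a8* and *Slc2a5* and those of *Slc2a5* and *Slc2a1* overlapped. *Slc2a5* also overlapped *Khk* in RT WT, where replicate 3 held 21.6 TPM of *Slc2a5* and 19.1 of *Khk*. In both *Txnip*-/- groups *Slc2a5* came next after *Slc2a4*, above *Khk* and *Slc2a8* with no overlap. The remaining 5, *Slc2a12*, *Slc2a9*, *Slc2a3*, *Slc2a10* and *Slc2a6*, had group means of at most 1.95 TPM. Among them *Slc2a12* and *Slc2a9* overlapped in RT WT, RT *Txnip*-/- and TN WT, and in TN *Txnip*-/- each of *Slc2a9*, *Slc2a3*, *Slc2a12*, *Slc2a10* and *Slc2a6* overlapped the next in order.

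The genotype comparison asked which of these transcripts differ between *Txnip*-/- and WT BAT at each temperature. *Slc2a5* rose and *Slc2a1* fell in TN *Txnip*-/- BAT, and at RT none of the 6 that could be tested passed, although *Slc2a5*, *Slc2a1* and *Slc2a12* lay apart in the same directions as at TN. *Khk* and *Slc2a8* differed little, with intervals around 0 at both temperatures. Genes were tested with limma on log2(TPM + 1) where their mean was at least 1 TPM in the libraries compared, and called at an adjusted p under 0.05 with a fitted fold change past the thresholds of the study's methods, the lower of which is 0.8. At RT 6 of the 10 could be tested, and limma called 0 of them, against 0.76% of 11980 genes called higher and 0.726% lower. These shares rest on 178 calls over all genes, which became 2 to 159 when 1 library was left out. Of these 6, 3 had an unadjusted p under 0.05, as had 1921 of the 11980 genes (16%), and limma voom on the recovered reads also called 0. At TN 8 could be tested, and 1 was called higher and 1 lower, against 6.49% and 2.17% of 12891 genes. The median log2 fold change was -0.05 over the 6 at RT and 0.01 over the 8 at TN, beside 0.03 and 0.01 over all genes tested. The groups did not overlap for 3 of the 6 at RT and 3 of the 8 at TN, against 22.6% and 31.1% of all genes tested.

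**Figure D3:**
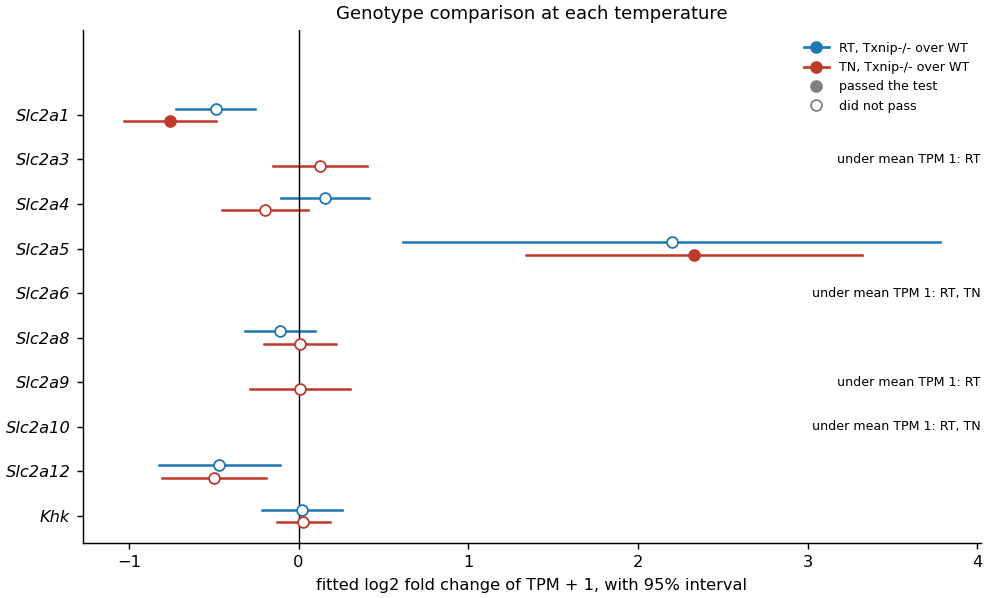
Fitted log2 fold change of TPM + 1 (*Txnip*-/- over WT, 6 libraries per temperature) with its 95% interval, for genes with a mean of at least 1 TPM, with filled points for those that passed the test. *Slc2a5* had the widest intervals, and *Slc2a5* and *Slc2a1* at TN are the filled points.

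*Slc2a5* (GLUT5, chr4:150119344-150144168 in mm10) had the largest genotype difference of the 10. Its TPM were 2.80, 2.19 and 21.6 in RT WT and 29.7, 25.2 and 32.0 in RT *Txnip*-/-. At TN they were 3.702, 17.2 and 6.88 in WT and 43.2, 34.0 and 54.5 in *Txnip*-/-. Every *Txnip*-/- library was above every WT library of either temperature, and within WT, replicate 3 at RT and replicate 2 at TN stood above the other two. The mean was 3.26 times that of WT at RT and 4.75 times at TN. The fitted log2 fold change was 2.20 at RT (SE 0.675, limma adjusted p = 0.18) and 2.33 at TN (SE 0.429, limma adjusted p = 0.0167). Without RT WT replicate 3 the RT difference was called, at 3.10 on the log2 scale (limma adjusted p = 0.000593). The TN call was lost without TN WT replicate 3 (2.26, limma adjusted p = 0.0607) and without TN *Txnip*-/- replicate 1 (2.33, limma adjusted p = 0.0589), and narrowly with all genes above 0 TPM in the fit (limma adjusted p = 0.0515).

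*Slc2a5* was among the genes with the largest spread within WT. The 3 RT WT libraries held 193, 148 and 1159 reads of the gene, with exact Poisson 95% intervals of 166.7 to 222.2, 125.1 to 173.9 and 1093 to 1228, which cover counting error only. The SD of log2(TPM + 1) was 1.57 in RT WT and 0.98 in TN WT, and 7 of 11924 genes in RT WT (0.0587%) and 28 of 12739 in TN WT (0.22%) had a larger SD. In *Txnip*-/- the SD was 0.17 at RT and 0.33 at TN, where 24.2% and 4.67% of genes had a larger one. *Txnip* was 694 TPM in RT WT replicate 3, above the 564 and 581 of the other RT WT libraries, and 1083 TPM in TN WT replicate 2, between the 1072 and 1238 of the other TN WT libraries.

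*Mlxipl*, which encodes ChREBP, a factor that answers to glucose and fructose metabolites, was on a list of sugar sensors. It was 87.5, 112 and 157 TPM in RT WT and 122, 183 and 128 TPM in TN WT, with the highest value again in RT replicate 3 and TN replicate 2. In *Txnip*-/- it was 203, 166 and 200 TPM at RT and 230, 227 and 239 TPM at TN. The groups did not overlap at either temperature, and *Mlxipl* rose at TN by 0.71 on the log2 scale (SE 0.142, limma adjusted p = 0.0228) and was not called at RT (0.70, SE 0.197, limma adjusted p = 0.146). This library order was noticed after the values of *Slc2a5* were seen and is not particular to *Mlxipl*, since *Arrdc4*, *Mlxip*, *Fbp2* and *Slc2a4* were also highest in RT WT replicate 3 and TN WT replicate 2 of their groups. The part of *Mlxipl* in the level of *Slc2a5* was not tested.

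**Figure D4:**
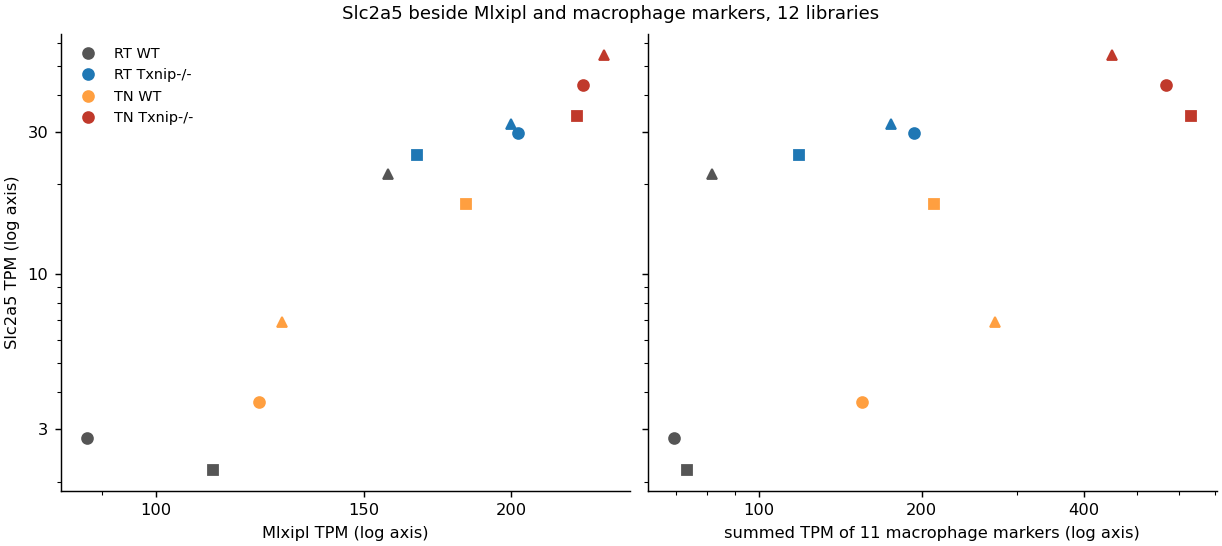
*Slc2a5* TPM against *Mlxipl* TPM (left) and against the summed TPM of 11 macrophage markers (right) in the 12 libraries, all on log axes, with groups by colour and replicates 1, 2 and 3 as circle, square and triangle. The WT libraries with 21.6 and 17.2 TPM of *Slc2a5* had 157 and 183 TPM of *Mlxipl* and macrophage sums of 81.8 and 211 TPM, and both *Mlxipl* and the macrophage sum were higher in *Txnip*-/- than in WT at each temperature without overlap.

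Markers of several other cell types also differed between genotypes. Of the skeletal muscle list, 6 of 6 tested markers were called higher at RT, with a median log2 fold change of 2.26, and 0 of 2 at TN. Of the macrophage list, 3 of 8 tested genes were called higher at RT and 10 of 11 at TN, and their sum was 69.5 to 81.8 TPM in WT and 118 to 193 in *Txnip*-/- at RT, and 155 to 273 in WT and 451 to 630 in *Txnip*-/- at TN. No marker of the list was at 0 in all 3 libraries of a group. The macrophage sum was thus higher in *Txnip*-/- at both temperatures without overlap, as *Slc2a5* was. All 5 fibroblast markers tested were called higher at TN (298 to 402 TPM in WT, 689 to 699 in *Txnip*-/-) and 0 of 5 at RT. The sum of 4 T cell markers was 1.22 to 1.82 TPM in WT and 2.06 to 3.12 in *Txnip*-/- at RT, and 1.87 to 5.08 in WT and 7.16 to 10.03 in *Txnip*-/- at TN. That of 4 B and plasma cell markers overlapped at RT and was 4.05 to 6.17 TPM in WT and 14.9 to 21.01 in *Txnip*-/- at TN. Of 3 white adipocyte markers tested, 2 were called higher at TN, *Nnat* and *Retn*, while *Lep* was not (log2 fold change -0.08), and 0 were called at RT. The sum of this list overlapped at TN, at 91.6 to 114.4 TPM in WT and 111.2 to 176.4 in *Txnip*-/-. The part of all these cells in the level of *Slc2a5* was not tested, and in bulk tissue more cells of a type and more RNA per cell cannot be told apart.

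*Slc2a1* (GLUT1, chr4:119108745-119137329) was lower in *Txnip*-/-. Its TPM were 4.43, 5.64 and 4.85 in RT WT and 3.33, 3.21 and 3.18 in RT *Txnip*-/-, and 6.60, 7.02 and 8.23 in TN WT and 4.10, 3.26 and 4.39 in TN *Txnip*-/-. The groups did not overlap at either temperature, and the highest *Txnip*-/- library at TN lay just under the lowest WT library at RT. The mean in *Txnip*-/- was 0.538 times that of WT at TN and 0.652 times at RT. *Slc2a1* fell at TN by 0.76 on the log2 scale (SE 0.118, limma adjusted p = 0.00998), and the RT difference of -0.49 (SE 0.1, limma adjusted p = 0.0679) passed with all 12 libraries in 1 fit (limma adjusted p = 0.0428). GLUT1 is also abundant in endothelial cells. The sum of 6 endothelial markers was 272 to 290 TPM in RT WT and 222 to 269 in RT *Txnip*-/-, and 330 to 410 in TN WT and 360 to 401 in TN *Txnip*-/-, with 0 of 6 called by genotype at either temperature. That sum lay lower in *Txnip*-/- without overlap at RT, as did its members *Kdr* (log2 fold change -0.34, limma adjusted p = 0.128) and *Tie1* (-0.32, limma adjusted p = 0.224), and the sums overlapped at TN. The sum of 4 erythroid markers overlapped between genotypes at both temperatures. The brown adipocyte sum lay lower in *Txnip*-/- at both temperatures, as given above, and 2 of its 8 markers were called lower at RT and 5 at TN. The part of endothelial cells, red cells and brown adipocytes in the level of *Slc2a1* was not tested. An exon of *Slc2a1* overlaps *Gm12868*, which was not analysed here, on the other strand, and whether counting used strand is not given.

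*Slc2a12* (GLUT12, chr10:22645011-22703880), a further glucose carrier described in insulin-sensitive tissues, had the same direction at a lower level. Its TPM were 2.38, 1.95 and 1.41 in RT WT and 1.33, 1.04 and 0.91 in RT *Txnip*-/-, and 2.40, 1.71 and 1.74 in TN WT and 0.993, 0.987 and 1.26 in TN *Txnip*-/-. The groups did not overlap, although the gap at RT was from 1.33 to 1.41 TPM. Neither difference passed, at -0.47 (SE 0.152, limma adjusted p = 0.198) at RT and -0.50 (SE 0.132, limma adjusted p = 0.0546) at TN. The level rested on 59 to 223 reads per library. The last exon overlaps *Tbpl1* on the other strand, and *Tbpl1* was between 8.997 and 12.2 TPM in all 12 libraries.

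*Khk* (chr5:30921559-30931248) did not follow genotype. It was 23.3, 21.8 and 19.1 TPM in RT WT and 22.8, 19.3 and 23.1 in RT *Txnip*-/-. At TN it was 30.4, 31.5 and 28.8 TPM in WT and 32.5, 30.0 and 30.0 in *Txnip*-/-. The genotypes overlapped at both temperatures, with a log2 fold change of 0.02 at RT (95% interval -0.218 to 0.257) and 0.03 at TN (-0.129 to 0.184). *Slc2a8*, an intracellular transporter, was 17.1 ± 0.243 TPM in WT and 15.9 ± 1.81 in *Txnip*-/- at RT, and 17.2 ± 1.33 in WT and 17.3 ± 1.75 in *Txnip*-/- at TN (SD, n = 3), with a log2 fold change of -0.11 (-0.318 to 0.094) at RT and 0.01 (-0.204 to 0.221) at TN. *Slc2a4* had 0.16 (-0.106 to 0.418) at RT and -0.20 (-0.45 to 0.0558) at TN. Skeletal muscle also expresses *Slc2a4*. The sum of 7 muscle markers was 2.40 to 2.97 TPM in RT WT and 20.2 to 50.2 in RT *Txnip*-/-. At TN it was 2.38 to 16.3 in WT and 3.14 to 16.0 in *Txnip*-/-. The part of muscle in the level of *Slc2a4* was not tested.

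The genes near or under 1 TPM gave less precise values. *Slc2a9*, which carries urate, had means of 1.099 and 0.892 TPM at RT, where it was under the expression minimum, and 1.51 in both genotypes at TN (log2 fold change 0.01, 95% interval -0.288 to 0.302). *Slc2a3*, the high-affinity glucose carrier of neurons and blood cells, was 0.706 and 0.658 TPM at RT and 1.07 and 1.26 at TN, where the log2 fold change was 0.13 (-0.151 to 0.402). *Slc2a10*, whose human gene is altered in arterial tortuosity syndrome, was 0.403 and 0.414 TPM at RT and 0.706 and 0.917 at TN, with overlapping groups. *Slc2a6*, a lysosomal family member found in macrophages, was counted in 1, 3 and 2 reads in RT WT and in 9, 1 and 5 in RT *Txnip*-/-. These RT groups overlapped, and a difference can be missed at so few reads. With all genes above 0 TPM in the fit the RT value was 0.09 (limma adjusted p = 0.65). At TN *Slc2a6* had 4, 13 and 18 reads (0.082, 0.355 and 0.549 TPM) in WT and 21, 41 and 27 (0.677, 1.02 and 0.774 TPM) in *Txnip*-/-. Those groups did not overlap and the mean was 2.51 times that of WT, with an exact two-sided permutation p of 0.1, the smallest that 3 against 3 libraries allow. The order of the groups matched that of the macrophage sums given above, and the part of macrophages in it was not tested.

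The temperature comparison asked how the same transcripts differ between TN and RT within a genotype. *Khk* was higher at TN in both genotypes, *Slc2a1* and *Slc2a4* were called higher in WT, and *Slc2a9* in *Txnip*-/-, with no difference between genotypes called. None of the 7 that could be tested was called lower at TN. These values need a reference, since the median of all genes tested was itself 0.18 on the log2 scale in WT and 0.15 in *Txnip*-/-, and scaling each library by its upper quartile took it to 0.02 and 0.01. Of these 7, 3 were called higher in WT and 2 in *Txnip*-/-, against 31.4% and 30.9% of 12486 genes called higher and 6.39% and 8.27% called lower. Of all calls 83.1% were higher in WT and 78.9% in *Txnip*-/-, which became 55.5% and 56.0% with upper-quartile scaling and 51.1% and 48.5% with median centring. The groups did not overlap for 2 of the 7 in WT and 3 of the 7 in *Txnip*-/-, against 57.5% and 61.1% of genes. The genotype and temperature comparisons share libraries, so their values are not independent.

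**Figure D5:**
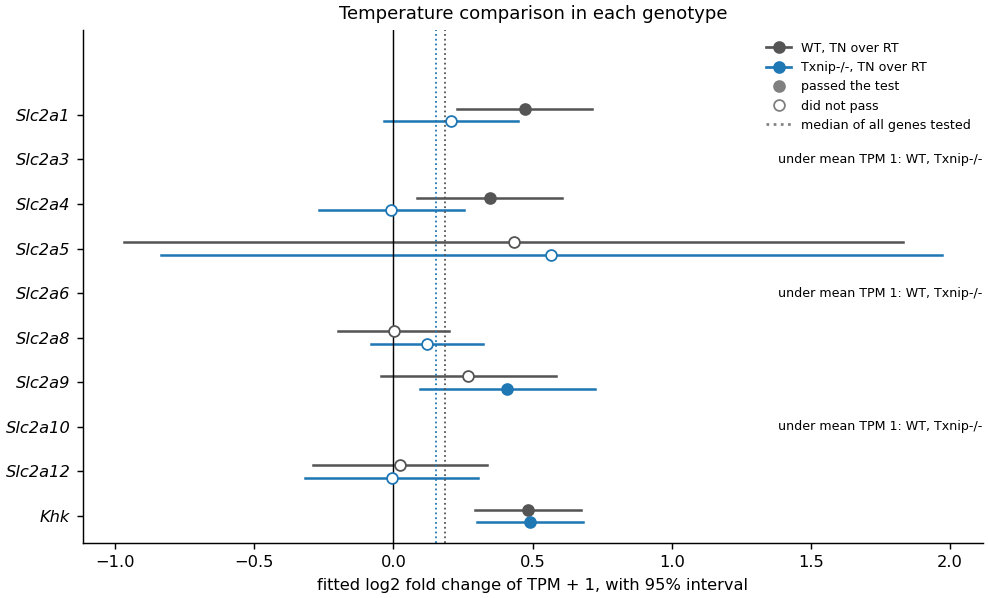
Fitted log2 fold change of TPM + 1 (TN over RT, within WT and within *Txnip*-/-, 12 libraries in the fit) with its 95% interval, with filled points for those that passed the test and dotted lines at the median of all genes tested. *Khk* lay to the right of both dotted lines in both genotypes, with its intervals above them.

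*Khk* was 1.41 times higher at TN in WT and 1.42 times in *Txnip*-/-, and the TN and RT libraries did not overlap in either genotype. The log2 fold change was 0.48 in WT (SE 0.0867, limma adjusted p = 0.0011) and 0.49 in *Txnip*-/- (SE 0.0867, limma adjusted p = 0.00073), which is 0.30 and 0.34 above the median of all genes. With upper-quartile scaling or median centring the WT value was 0.30 (limma adjusted p = 0.00862 and 0.00859), under the fold threshold, as was the *Txnip*-/- value of 0.30 with median centring. *Slc2a1* was 1.47 times higher in WT at TN, by 0.47 on the log2 scale (SE 0.111, limma adjusted p = 0.00465) or 0.29 above the median, and 0.21 in *Txnip*-/- (SE 0.111, limma adjusted p = 0.138). *Slc2a1* in WT was under the fold threshold with upper-quartile scaling (0.31, limma adjusted p = 0.038) and did not pass with median centring (0.29, limma adjusted p = 0.0533). Endothelial markers were also called higher at TN, 4 of 6 in WT and 6 of 6 in *Txnip*-/-. Their part in the temperature difference of *Slc2a1* was not tested.

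*Slc2a4* was 1.26 times higher at TN in WT, by 0.35 on the log2 scale (SE 0.12, limma adjusted p = 0.0313), although replicate 3 of RT WT, at 271 TPM, was above replicate 1 of TN WT, at 264. That call was lost without RT WT replicate 1 (0.22), RT WT replicate 2 (0.35), TN WT replicate 2 (0.31) or TN WT replicate 3 (0.31), with all genes above 0 TPM in the fit (0.35), and with both scalings, where the value was 0.16. In *Txnip*-/- the mean of *Slc2a4* was 257 TPM at each temperature (log2 fold change -0.01, 95% interval -0.269 to 0.253). *Slc2a9*, at a mean of 0.892 TPM in RT *Txnip*-/-, reached the expression minimum over the 12 libraries only through groups where it was higher. It was 0.825 to 1.01 TPM in RT *Txnip*-/- and 1.44 to 1.55 in TN *Txnip*-/-, a log2 fold change of 0.41 (SE 0.144, limma adjusted p = 0.0323). In WT it was 0.27 (95% interval -0.0447 to 0.584, limma adjusted p = 0.137), which passed without RT WT replicate 1 (0.43, limma adjusted p = 0.0201), and the 2 genotypes were not shown to differ (interaction 0.14, limma adjusted p = 0.807). The *Txnip*-/- call was lost in 5 of the 6 fits that left out a *Txnip*-/- library, all but that without RT replicate 3, with log2 values of 0.38 to 0.43, and with both scalings (0.32 and 0.22). *Slc2a5* was not called in either genotype, at 0.43 in WT (95% interval -0.969 to 1.83) and 0.57 in *Txnip*-/- (-0.834 to 1.97), though the *Txnip*-/- libraries at TN were all above those at RT. In WT the value went to 1.33 without RT WT replicate 3 (limma adjusted p = 0.0273) and to -0.08 and -0.09 without RT WT replicate 2 and TN WT replicate 2. *Slc2a8* (0.00 and 0.12) and *Slc2a12* (0.02 and -0.01) had values below the median of all genes in both genotypes.

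*Slc2a3*, *Slc2a6* and *Slc2a10* were under the expression minimum over the 12 libraries, and for each of them every TN library was above every RT library of the same genotype, as for the 57.5% and 61.1% of tested genes given above whose groups did not overlap in either direction. The mean of *Slc2a3* was 1.52 times higher at TN in WT and 1.92 times in *Txnip*-/-, and that of *Slc2a10* 1.75 and 2.21 times, ratios from which the general shift towards TN is not removed. *Slc2a6* went from 1 to 3 reads to 4 to 18 in WT, and from 1 to 9 reads to 21 to 41 in *Txnip*-/-. The macrophage and endothelial sums given above were also higher at TN than at RT in both genotypes without overlap, as was the fibroblast sum, which was 174 to 221 TPM in WT and 213 to 260 in *Txnip*-/- at RT. The general shift is not removed from these sums either, and the part of these cells in the 3 transcripts was not tested.

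Whether genotype values differed between temperatures was tested with the interaction, for which 1 of 12486 genes, *Txnip*, was called (0.00801%). Of the 7 tested here 0 were called and 0 had an unadjusted p under 0.05, against 12.6% of all genes tested, and limma voom on the recovered reads called 0. The difference between the TN and RT log2 fold changes was 0.13 for *Slc2a5* (SE 0.906, 95% interval -1.85 to 2.12), -0.27 for *Slc2a1* (SE 0.156, -0.608 to 0.0761) and -0.35 for *Slc2a4* (SE 0.169, -0.723 to 0.0164). For *Slc2a12* and *Khk* the differences were -0.03 (-0.472 to 0.411) and 0.01 (-0.26 to 0.276). The interval of *Slc2a5* is wide and holds large differences in either direction, so equal effects at RT and TN were not shown.

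Other genes of sugar handling were taken from lists. Of the 5 sugar-sensing factors, 1 was called lower at each temperature, *Txnip*, the deleted gene, whose call follows from the design. At RT 0 were called higher and at TN 2 were, against 0.76% and 6.49% of all genes tested. Beside *Mlxipl*, the gene called higher at TN was *Arrdc4*, the arrestin-like relative of *Txnip* and a known glucose-responsive gene. *Arrdc4* was 4.75, 6.48 and 4.94 TPM in TN WT and 14.2, 14.6 and 12.1 in TN *Txnip*-/- (log2 fold change 1.20, SE 0.121, limma adjusted p = 0.00314), with 0.39 at RT (SE 0.133, limma adjusted p = 0.218). The test of the difference between temperatures gave 0.81 (SE 0.19, limma adjusted p = 0.15). *Mlxip* and *Mlx*, which encode the paralogue and the partner of ChREBP, were not called by genotype.

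All 16 genes of GLUT4 storage and traffic were tested, among them *Tbc1d4*, *Lnpep* and *Sort1*, and 0 were called by genotype at RT or TN, with a median log2 fold change of 0.01 and 0.00. *Rhoq*, which encodes the small GTPase TC10, had an adjusted p under the threshold at TN (-0.31, limma adjusted p = 0.0393) and missed the call with a fitted fold of 0.807. Of the 16, *Rhoq*, *Sort1*, *Rab10*, *Rab14*, *Myo1c* and *Usp25* were lower in TN *Txnip*-/- without overlap, with log2 values of -0.31 to -0.08. The rest overlapped, and over all genes 31.1% did not overlap in either direction. Of these genes, at RT, *Rab14* (0.05) and *Usp25* (0.12) were higher without overlap and *Myo1c* (-0.18) lower. *Rhoq*, *Sort1* and *Rab10* overlapped there. Of the genes of hexose phosphorylation 0 of 3 were called at RT, and at TN 1 of 4 was, *Hk3*, a hexokinase of myeloid cells, at 0.633 to 1.21 TPM in WT and 1.98 to 3.38 in *Txnip*-/- (log2 fold change 0.87, SE 0.177, limma adjusted p = 0.0235). With a mean of 0.949 TPM in WT and 2.58 in *Txnip*-/-, *Hk3* reached the expression minimum at TN only through the group where it was high. *Hk2*, the main insulin-responsive hexokinase of fat and muscle, was 128.5 TPM in RT WT and 135 in RT *Txnip*-/- on average, and 67.1 and 66.9 at TN. *Hk2* fell from RT to TN by 0.92 on the log2 scale in WT (SE 0.198, limma adjusted p = 0.00305) and by 1.05 in *Txnip*-/- (SE 0.198, limma adjusted p = 0.00113), opposite to *Khk*. Of the 4 tested genes of this list, 1 was called higher and 1 lower at TN in WT, against 31.4% and 6.39% of all genes. In *Txnip*-/- 2 were called higher and 2 lower, against 30.9% and 8.27%.

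Of the 9 genes tested of the fructose and polyol list, 2 were called lower at each temperature and 1 higher at TN, against 0.726% of all genes tested called lower at RT, and 2.17% lower and 6.49% higher at TN. *Akr1b10*, an aldo-keto reductase, was 54.5 to 61.0 TPM in RT WT and 39.3 to 44.5 in RT *Txnip*-/-, and 47.0 to 49.97 in TN WT and 33.7 to 42.0 in TN *Txnip*-/-. It fell by 0.42 on the log2 scale at RT (SE 0.0732, limma adjusted p = 0.0472) and by 0.35 at TN (SE 0.087, limma adjusted p = 0.0467). *Aldh2*, the mitochondrial aldehyde dehydrogenase, fell by 0.38 at RT (SE 0.0522, limma adjusted p = 0.0256) and by 0.36 at TN (SE 0.0723, limma adjusted p = 0.0217). *Fbp2*, a fructose bisphosphatase known from muscle, was 10.7, 17.1 and 14.2 TPM in TN WT and 23.6, 32.3 and 24.0 in TN *Txnip*-/- (log2 fold change 0.89, SE 0.174, limma adjusted p = 0.0207). It was not called at RT (0.56, SE 0.174, limma adjusted p = 0.181), and the part of muscle in its level was not tested. *Tkfc*, which encodes triokinase, was not called by genotype. Of 11 other sugar transporters 2 reached the expression minimum and 0 were called by genotype.

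Genes with the most similar course over the 12 libraries were found by the root mean square difference of log2(TPM + 1), each gene centred on its own mean, among 12485 genes. For *Slc2a5* the nearest were *Gm35986* (0.66), *Pth1r* (0.813), the receptor of parathyroid hormone, and *Sorcs2* (0.817), a sorting receptor. These differences are large beside those of the other genes, since *Slc2a5* itself deviated from its mean by 1.39. *Pth1r* shared the order of the WT libraries, with 13.0, 12.8 and 20.95 TPM in RT WT and 11.8, 17.4 and 13.5 in TN WT, and was 26.4 to 33.9 in RT *Txnip*-/- and 37.7 to 42.3 in TN *Txnip*-/-. *Gm35986* was 5.29, 5.98 and 13.0 TPM in RT WT and 4.27, 10.2 and 3.21 in TN WT, highest in RT replicate 3 and TN replicate 2. Both genes were picked for their likeness to *Slc2a5* in these libraries, so the shared high WT libraries are no separate result.

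For *Slc2a1* the nearest were *Osbp2* (0.145), *Asns* (0.173), the asparagine synthetase, and *Ank2* (0.174), where *Slc2a1* deviated from its mean by 0.377. For *Khk* they were *Ighmbp2* (0.0481), *Rad9b* (0.0523) and *Tnrc6c* (0.0578), with its own deviation at 0.259. *Slc19a2* (0.0804), a thiamine transporter, was the nearest to *Slc2a4* and *Elp4* (0.0782) to *Slc2a9*. The likeness is a description of these libraries, which share their groups and scaling.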

How the data were processed

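Interscapular BAT of male mice was profiled in 12 libraries by poly-A RNA-seq (NEBNext Ultra II, single-end reads of 75 bp). The authors aligned the reads to mm10 with STAR 2.7.5a, counted reads on exons with HOMER 4.11.1 with 1 transcript per gene, and deposited TPM for all 12 libraries. They also deposited log2-scale values of the 6 libraries of each temperature, made by a transform that is not given in the sources used here, together with the results of a DESeq2 comparison of genotypes (log2 fold change, p-value and adjusted p-value per gene), which were not used. For *Slc2a4*, *Slc2a6*, *Slc2a8*, *Slc2a9* and *Khk* the transcript behind the TPM is another than in the tables of log2-scale values. For *Slc2a8* it has 1533 bases against 2106, and for *Khk* 1311 against 1445 at RT and 1579 at TN. The order of levels between these genes can depend on this choice. Whether counting used strand is not given in the sources used here.

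Genes, groups and values were read by name. TPM times transcript length gave whole multiples of a unit for 99.56% to 99.95% of 9224 to 11758 low values per library (within 0.1 of a whole read), so reads were recovered, with, in units of 1e6 reads, 19.19 to 29.23 on exons of 29.93 to 47.44 in all. Intervals on reads are exact Poisson intervals at 95% and cover counting error only. TPM were tested on log2(TPM + 1), which understates the change of low genes, with limma 3.58.1 (trend, empirical Bayes) in R 4.3.3 and Benjamini-Hochberg adjustment over all genes with a mean of at least 1 TPM. A call needed an adjusted p under 0.05 and a fold over 1.25 or under 0.8, as in the study's methods, and the interaction an adjusted p under 0.05 alone. Genotypes were compared on the 6 libraries of a temperature, and temperatures and the interaction on all 12 with 4 group means. Genes under the minimum were given by their values and an exact permutation test, whose smallest p is 0.1. The code was tested on simulated reads.

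All 10 genes are named with values. Genes of the sugar-handling lists are named where called by genotype, and *Hk2*, *Tkfc*, *Tbc1d4*, *Lnpep*, *Sort1*, *Rhoq*, *Rab10*, *Rab14*, *Myo1c*, *Usp25*, *Mlxip*, *Mlx*, *Tbpl1*, *Kdr*, *Tie1*, *Nnat*, *Retn* and *Lep* after their values were seen. Genes most like a called one were the nearest 3 by root mean square difference. The members and lists were chosen with earlier results of these data known. Promoter sequences are from RefSeq (GRCm38.p6), which matched 8 of the 10, overlapping exons from GENCODE vM21. Alternatives were another pseudocount (0.1), no expression minimum, upper-quartile scaling, median centring, the replicate number as a block, each library left out, all 12 libraries in 1 fit, no fold threshold, the authors' log2-scale values, and limma voom on the recovered reads, the last chosen after seeing the data. Figures were drawn with matplotlib 3.10.9.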

Additional observations from a re-analysis of the deposited data

How the results depend on the processing

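The number of the 10 genes called changed with these settings. At RT, 0 became 1 with all 12 libraries in 1 fit (*Slc2a1*) and 0 to 1 when a library was left out (*Slc2a5*, without RT WT replicate 3). At TN, 2 became 1 with all genes above 0 TPM, 3 with median centring, 12 libraries in 1 fit, the authors' log2-scale values and voom, and 1 to 2 when a library was left out. TN against RT in WT, 3 became 0 with upper-quartile scaling, 0 with median centring, 6 with limma voom on recovered reads and 2 to 4 when a library was left out. TN against RT in *Txnip*-/-, 2 became 5 with all genes above 0 TPM, 1 with upper-quartile scaling, 0 with median centring, 5 with limma voom and 1 to 2 when a library was left out. The cause of these shifts was not tested, except that the calls added between temperatures by voom, and by the fit of all genes in *Txnip*-/-, were *Slc2a3*, *Slc2a6* and *Slc2a10*, which the minimum of 1 TPM leaves out there. Over all genes, the 178 calls at RT became 44 with all genes above 0 TPM, 100 with the replicate block and 272 with 12 libraries in 1 fit, and the 1116 at TN became 621 with all genes above 0 TPM. The RT count was 31 without RT WT replicate 1, 2 without RT WT replicate 2, and 33, 87 and 25 without RT *Txnip*-/- replicates 1, 2 and 3. The TN count was 703 and 684 without TN WT replicates 1 and 3, and 456 and 464 without TN *Txnip*-/- replicates 1 and 2. Limma voom called 214 genes at RT and 1397 at TN. The call of *Slc2a1* at TN was kept in all 15 alternatives, and *Slc2a12* at TN passed in 4 of 15 (median centring, 12 libraries in 1 fit, the authors' log2-scale values and voom, limma adjusted p from 0.0198 to 0.0449).

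The numbers were not taken as pairs, since the methods name no pairing. Same-numbered WT and *Txnip*-/- libraries had deviations correlated at 0.30, -0.01 and 0.22 at RT and at 0.04, 0.02 and -0.03 at TN. At RT 2 of the numbers matched best with their own number, and at TN 0 did. What such libraries share was not tested. With the replicate block 0 were called at RT, 2 at TN, 3 in WT and 2 in *Txnip*-/- between temperatures and 0 in the interaction, as without it.

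Values that passed no test in the fits reported above changed sign, most of them near 0. For *Khk* at RT the log2 value was -0.0132 with upper-quartile scaling, -0.00868 with median centring, -0.0235 with the authors' log2-scale values and -0.00831 with voom, and -0.0575 to 0.0998 with a library left out. At TN it was -0.00887 with median centring and -0.0103 to 0.0563 with a library left out. For *Slc2a8* at TN it was -0.00811, -0.0279, -0.0384 and -0.0113 under those 4 settings and -0.0663 to 0.0671 with a library left out, and for *Slc2a9* at TN -0.0029, -0.0292, -0.00397 and -0.0159, and -0.0958 to 0.0979. From RT to TN in WT, upper-quartile scaling and median centring gave -0.176 and -0.182 for *Slc2a8* and -0.0972 and -0.159 for *Slc2a12*. Leaving out a library there gave -0.0551 to 0.0483 and -0.106 to 0.137 for these and -0.0938 to 1.33 for *Slc2a5*, whose reported value was 0.43 and which passed at 1.33, without RT WT replicate 3 (limma adjusted p = 0.0273). In *Txnip*-/- the scalings gave -0.0334 and -0.0679 for *Slc2a8*, voom gave 0.0208 for *Slc2a4* and 0.0238 for *Slc2a12*, and leaving out a library gave -0.11 to 0.0757 and -0.0702 to 0.0726 for the latter pair. The interaction was 0.00597 for *Slc2a12* with upper-quartile scaling and -0.038 for *Slc2a5* with voom. With a library left out it was -0.766 to 0.66 for *Slc2a5*, -0.144 to 0.0991 for *Slc2a12*, -0.0724 to 0.0849 for *Khk* and -0.0192 to 0.255 for *Slc2a9*. Over the single genes, 511 values kept direction and side of the threshold, 60 turned sign, 22 lost and 8 gained a call. Depth limits *Slc2a6* most, at 1 to 41 reads per library.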
